A study of Mus musculus with 8 samples.

Results

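The genes described here are 10 regulators of mTORC1, the kinase complex that matches cell growth to nutrients. They are the sestrin genes Sesn1, Sesn2 and Sesn3, the REDD genes Ddit4 (encoding REDD1) and Ddit4l (REDD2), the TSC genes Tsc1 and Tsc2, and Mtor, Rptor and Deptor, which encode parts of the mTOR complexes. They were chosen by symbol, and all 10 were found among the 49492 rows of the expression table. A minimum value of 1 in 2 or more samples was reached by 9 of them, and they were tested in a fit over 16232 genes. Ddit4l did not pass this filter and is described by its reads.

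The study asked by RNA-seq how gene expression depends on methylated arginines of Pontin when glucose is withdrawn. Ruvbl1 encodes Pontin, a chromatin-remodeling ATPase. All cells were mouse embryonic fibroblasts (MEFs) with the genotype Pontin f/f, made into a line by the 3T3 protocol, in which the endogenous Pontin gene was deleted with a Cre virus and Flag-tagged Pontin was stably expressed from a lentivirus under hygromycin selection. The added Pontin was the wild-type form (Pontin WT) or a form with 2 arginines replaced by alanine (Pontin RA). Each line was kept in normal medium, which was DMEM with serum, or in glucose starvation medium, which was glucose-free DMEM with dialyzed serum. This gave 4 groups with 2 replicates each, called normal WT, starved WT, normal RA and starved RA below. The length of the starvation before RNA-seq was not given in the sources used here. The 2 genotypes are 2 stable lines, so a difference between lines and a difference between Pontin forms cannot be told apart. Nothing in the labels says that the replicates came from separate cultures, so the p-values measure only the spread between these samples, which may be technical.

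Reads recovered from the values and summed over the rows came to between 43205841 and 56363034 per library. Reads counted to no gene are not among them. Values are CPM (read counts relative to a library size that the authors scaled), and a value of 3 reads lay between 0.0548 and 0.069. Ruvbl1 was at 27.98 ± 0.58 (normal) and 28.2 ± 0.38 (starved) in WT cells and at 34.4 ± 3.4 and 44.0 ± 1.5 in RA cells (mean ± SD, n = 2), which does not test the labels because the added copy and the remaining endogenous gene share a row. RA exceeded WT for Ruvbl1 by 0.29 on the log2 scale in normal medium (limma BH-adjusted p = 0.00946). Under starvation the difference was 0.62 (limma BH-adjusted p = 2.94e-07). The amount of Ruvbl1 mRNA thus also differed between the lines, and its part in the results was not tested. For the protein, the study reported from immunoblots that both added forms were at levels similar to endogenous Pontin. The summed value of 8 fibroblast markers was 10000 to 10080 in normal WT and 9905 to 10230 in normal RA, and 5306 to 5399 in starved WT and 7007 to 7025 in starved RA. Summed within each library, 8 immune markers ran from 21.0 to 26.1 over the libraries, 6 epithelial markers from 1.43 to 3.21 and 5 muscle markers from 0 to 0.392. The 5 endothelial markers summed to 2.05 to 3.44 in normal medium and 6.03 to 9.43 under starvation. Of these markers, 5 of 8 immune, 4 of 6 epithelial, 3 of 5 endothelial and all 5 muscle genes stayed under 1 in every sample. The part of these markers in the results was not tested.

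Sestrins, REDD1 and the TSC complex are brakes on mTORC1. Sestrins are stress-induced proteins that bind GATOR2, a complex that holds back GATOR1, and by this route keep the Rag GTPases from bringing mTORC1 to the lysosome. Sestrin 2 is also known as a sensor of leucine. REDD1 and REDD2 act through the TSC complex, in which the TSC2 protein switches off the GTPase Rheb, the direct activator of mTORC1, and TSC1 stabilizes TSC2. Within the complexes, mTOR is the kinase, Raptor (from Rptor) is the scaffold that makes a complex mTORC1, and Deptor is an inhibitory subunit. When mTORC1 is inactive, autophagy, the digestion of cell contents in the lysosome, is released. As background, Sesn1 is known as a target of p53, Sesn2 of p53 and ATF4, Sesn3 of FOXO factors, and Ddit4 of HIF, ATF4, p53 and the glucocorticoid receptor.

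Upstream sequences are shown for the 4 sestrin and REDD genes that passed the filter, because these genes changed with the medium and their known regulators bind DNA. RefSeq windows of 250 bases before the start site were found for 9 of the 10 genes, with 2 start sites for Sesn1, which gave 10 windows. Deptor was not matched. A stretch from 220 to 71 bases before the start is printed below, on the gene's own strand in the GRCm38.p6 build. It overlaps no exon of the GENCODE annotation. For Sesn1 and Sesn3 the stretch lies before a RefSeq start site but inside the gene as GENCODE places it. Capitals mark the CCAAT box, read as ATTGG or its complement, and the HIF core ACGTG.
Sesn1 (second start site, chr10:41887219-41887368, plus strand): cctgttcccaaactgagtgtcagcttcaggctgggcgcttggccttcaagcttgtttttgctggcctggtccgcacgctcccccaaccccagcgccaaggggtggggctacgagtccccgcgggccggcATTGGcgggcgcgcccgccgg
Sesn2 (chr4:132510527-132510676, minus strand): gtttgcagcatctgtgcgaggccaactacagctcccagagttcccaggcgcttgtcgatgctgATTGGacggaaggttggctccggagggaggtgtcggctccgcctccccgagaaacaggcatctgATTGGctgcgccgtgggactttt
Sesn3 (chr9:14276081-14276230, plus strand): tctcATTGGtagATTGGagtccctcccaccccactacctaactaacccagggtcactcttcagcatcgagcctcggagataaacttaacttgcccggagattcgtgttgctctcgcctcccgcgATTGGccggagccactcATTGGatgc
Ddit4 (chr10:59951841-59951990, minus strand): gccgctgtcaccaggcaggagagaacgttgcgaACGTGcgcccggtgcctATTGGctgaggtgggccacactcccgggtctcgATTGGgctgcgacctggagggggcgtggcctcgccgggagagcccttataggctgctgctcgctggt

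In the whole windows, ATTGG stood 197 bases before the first Sesn1 start and 91 bases before the second. It stood 157 and 93 bases before Sesn2. Sesn3 held 4 copies, at 216, 208, 96 and 79 bases, and Mtor held 4 copies on either strand, at 195, 93, 77 and 36 bases. Ddit4 held ATTGG at 170 and 137 bases and ACGTG at 187 bases, and Rptor held ACGTG at 34 bases. All 3 sestrin genes and Ddit4 therefore carried a CCAAT box, a motif found in 33.8% of 32851 RefSeq promoter windows of the same length. ACGTG was found in 16.6% of them, a share that includes CACGTG, the E-box, found in 6.02%. No window of the 9 genes held CACGTG, the ATF4 motif TGATGNAA (3.45% of all windows), the FOXO motif GTAAACA (3.17%) or, on the forward strand, the TATA box TATAAA (7.59%), and Ddit4l, Tsc1 and Tsc2 held none of the motifs searched. Every motif but the TATA box was searched on both strands. A match is a match of letters only, and the absence of one says only that these letters are not in this window.

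The sestrin genes moved in different directions under starvation. Sesn1 fell in both genotypes, Sesn2 rose in both, and Sesn3 fell in WT without passing the test in RA. In starved cells all 3 were higher in RA than in WT.

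**Figure D1:**
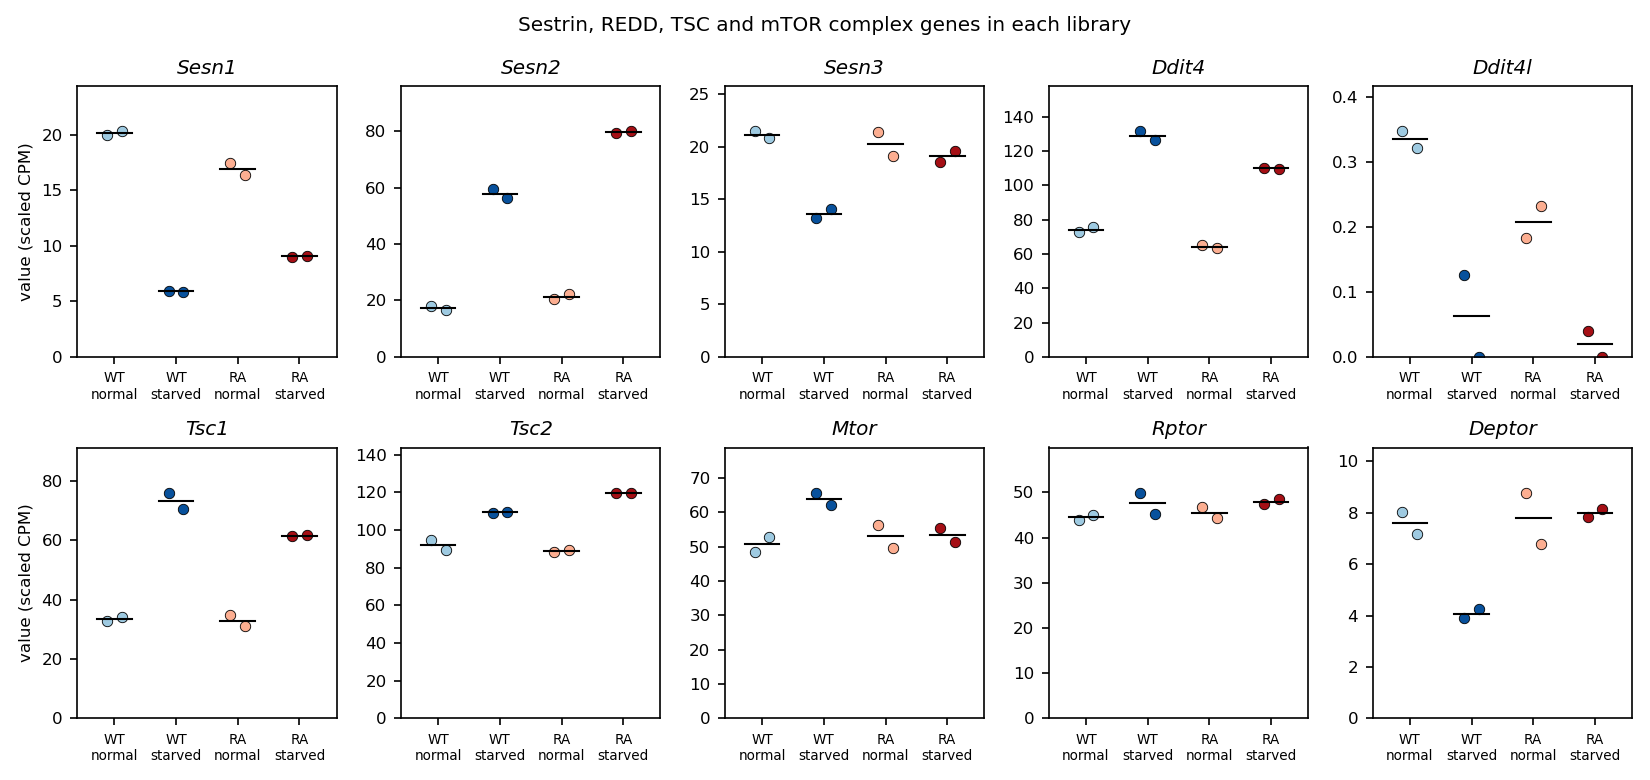
Value of each gene (scaled CPM, vertical axis from 0) in each of the 8 libraries, grouped by genotype and medium. Points are libraries and lines are group means of 2. Sesn2, Ddit4 and Tsc1 are higher in every starved library than in every library from normal medium, Sesn1 is lower in every one, and Sesn3 and Deptor are low in starved WT alone.

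Sesn1 (GRCm38 chr10:41809935-41908424) stood at 20.0 and 20.3 in the normal and at 5.93 and 5.85 in the starved WT libraries, and at 17.4 and 16.4 in the normal and 9.03 and 9.04 in the starved RA libraries. The 4 groups did not overlap, and their order was normal WT, normal RA, starved RA and starved WT. Here and below, ratios are of the values and log2 differences are of log2(value + 1), so they do not convert into each other. Starvation left 0.292 of the level in WT, with a log2 difference of -1.62 (SE 0.083, 95% interval -1.79 to -1.44, limma BH-adjusted p = 9.5e-12). In RA it left 0.535 of the level, with a log2 difference of -0.83 (95% interval -1.01 to -0.66, limma BH-adjusted p = 1.19e-07). The response thus differed between the genotypes by 0.78 on the log2 scale (SE 0.12, 95% interval 0.54 to 1.03, limma BH-adjusted p = 3.43e-05). Starved RA was 1.53 times starved WT (log2 difference 0.54, limma BH-adjusted p = 2.45e-05). In normal medium RA was the lower of the pair by a log2 difference of -0.24 (limma BH-adjusted p = 0.0785), and this difference did pass with edgeR on recovered reads (-0.264, edgeR BH-adjusted p = 0.046) and with total-read scaling (-0.287, limma BH-adjusted p = 0.0404). In bulk samples, fewer cells with the transcript and less of it per cell cannot be told apart.

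Sesn2 (chr4:132492032-132510501) stood at 17.9 and 16.6 in the normal and at 59.5 and 56.3 in the starved WT libraries, and at 20.3 and 22.2 in the normal and 79.3 and 80.1 in the starved RA libraries. Every starved library was above every library from normal medium, and in both media every RA library was above both WT libraries. The level under starvation was 3.36 times that in normal medium in WT and 3.75 times in RA. RA exceeded WT by 0.45 on the log2 scale under starvation (SE 0.06, 95% interval 0.33 to 0.58, limma BH-adjusted p = 4.63e-06) and by 0.29 in normal medium (95% interval 0.16 to 0.42, limma BH-adjusted p = 0.00517). The call in normal medium was lost without WT_CTL replicate 2 (0.238, limma BH-adjusted p = 0.0653), without RA_CTL replicate 2 (0.229, limma BH-adjusted p = 0.0515) and with eBayes without the mean-variance trend (0.29, limma BH-adjusted p = 0.0617), WT_CTL and RA_CTL being the labels of the normal WT and normal RA libraries. A difference in the size of the response was not shown (0.17, 95% interval -0.01 to 0.34, limma BH-adjusted p = 0.115), although it passed with total-read scaling (0.234, limma BH-adjusted p = 0.0326) and without RA_CTL replicate 2 (0.226, limma BH-adjusted p = 0.0379).

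Sesn3 (chr9:14275067-14333101) stood at 21.5 and 20.8 in the normal and at 13.2 and 14.0 in the starved WT libraries, and at 21.4 and 19.1 in the normal and 18.6 and 19.6 in the starved RA libraries. Starved WT stood below the other 3 groups, which overlapped among themselves. The log2 difference between starved and normal cells was -0.60 in WT (SE 0.076, 95% interval -0.76 to -0.44, limma BH-adjusted p = 1.45e-06). In RA it was -0.08 (95% interval -0.24 to 0.08, limma BH-adjusted p = 0.344). The difference between the responses was 0.52 (SE 0.11, 95% interval 0.29 to 0.74, limma BH-adjusted p = 0.000744), and starved RA was 1.40 times starved WT (log2 difference 0.46, limma BH-adjusted p = 5.75e-05). In normal medium the genotypes differed by -0.06 (limma BH-adjusted p = 0.676), an interval of -0.22 to 0.10.

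Levels of different genes were compared per kilobase of exon, since long transcripts collect more reads. On this scale the sestrin mRNA of normal WT was split between Sesn1 (5.06 CPM per kilobase) and Sesn2 (4.96), with Sesn3 at 1.39. Sesn1 made up 44.4% ± 1.4 of the sum in normal WT, Sesn2 43.5% ± 1.4 and Sesn3 12.2% ± 0.016 (SD, n = 2). In normal RA the shares were 36.3% ± 1.9 for Sesn1, 52.3% ± 2.9 for Sesn2 and 11.4% ± 0.98 for Sesn3. Under starvation Sesn2 dominated in both genotypes, with 87.5% ± 0.53 of the sum in WT and 86.7% ± 0.081 in RA. The share of Sesn1 was then 7.77% ± 0.18 in WT and 8.58% ± 0.058 in RA, and that of Sesn3 4.69% ± 0.36 and 4.72% ± 0.14.

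The sum of the 3 sestrins per kilobase was 11.4 ± 0.24 in normal WT and 11.7 ± 0.078 in normal RA. It reached 19.0 ± 0.62 in starved WT and 26.4 ± 0.21 in starved RA. The starved genotypes thus had sestrin mRNA of a similar make-up at different totals, and no test was run on the shares or sums. Sesn1 and Sesn3 both fell in WT, and Sesn2 gained more per kilobase than they lost together. The exon lengths come from GENCODE M21 and not from the annotation behind the values, and a transcript that is shorter in these cells would stand higher per kilobase.

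**Figure D2:**
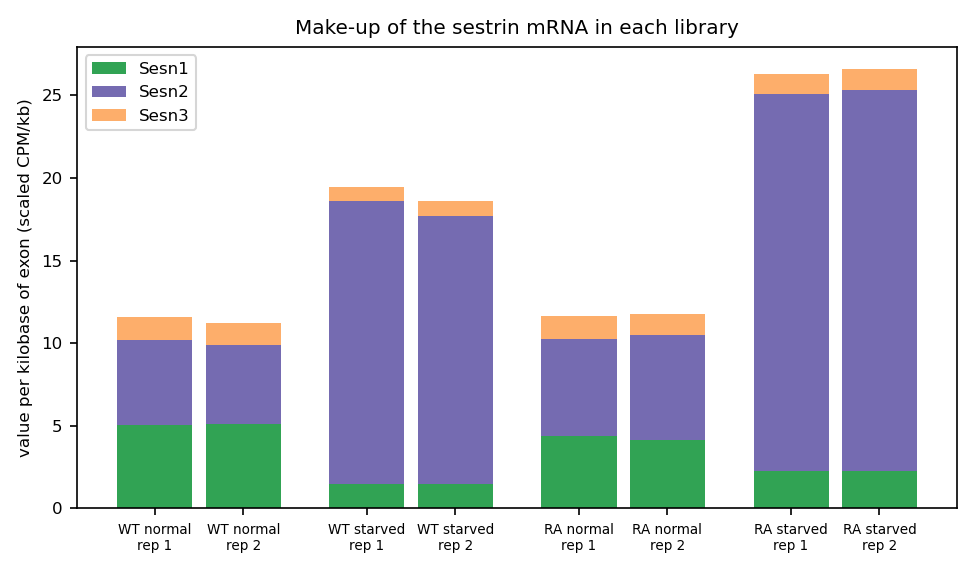
Stacked bars of the 3 sestrin genes in each of the 8 libraries, in scaled CPM per kilobase of exon (vertical axis from 0). Sesn2 makes up 87.5% of the sum in starved WT and 86.7% in starved RA, on totals of 19.0 and 26.4, against 43.5% and 52.3% in normal medium.

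Ddit4, which encodes REDD1, was the most abundant of the 10 genes per kilobase in all 4 groups, and it rose in both genotypes. Ddit4 (chr10:59949669-59951834) stood at 72.7 and 75.5 in the normal and at 132 and 126 in the starved WT libraries, and at 65.2 and 63.2 in the normal and 110.4 and 109.5 in the starved RA libraries. No groups overlapped, and in each medium both RA libraries were below both WT libraries. Per kilobase its levels were 42.2 (normal) and 73.5 (starved) in WT cells, and 36.6 and 62.6 in RA cells.

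The level under starvation was 1.74 times that in normal medium in WT (log2 difference 0.79, SE 0.042, limma BH-adjusted p = 1.54e-11) and 1.71 times in RA (0.77, limma BH-adjusted p = 5.09e-11). The difference between these responses was -0.03 (95% interval -0.15 to 0.10, limma BH-adjusted p = 0.747), so that a difference beyond 0.15 in either direction lay outside the interval. RA was below WT by a log2 difference of -0.23 under starvation (95% interval -0.32 to -0.14, limma BH-adjusted p = 0.000162) and of -0.20 in normal medium (95% interval -0.29 to -0.11, limma BH-adjusted p = 0.00536). The call in normal medium was lost without WT_CTL replicate 2 (-0.176, limma BH-adjusted p = 0.0716) and with eBayes without the trend (-0.203, limma BH-adjusted p = 0.0774). Ddit4 and Sesn2 thus rose together with the medium, while between the genotypes they stood in opposite order.

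Ddit4l (chr3:137621612-137628333), the REDD2 gene, was close to the limit of detection. In WT cells it had 16 and 16 reads in normal medium against 6 and 0 under starvation, and in RA cells 8 and 12 against 2 and 0. These reads correspond to values of 0.348 and 0.322, 0.126 and 0, 0.184 and 0.233, and 0.0392 and 0. Every starved library held fewer reads than every library from normal medium, and 3 of the 4 starved libraries were at or under 3 reads. With edgeR on recovered reads without the filter, an alternative chosen after the values were seen, the difference was called in WT (edgeR BH-adjusted p = 0.0312) and in RA (edgeR BH-adjusted p = 0.0193), with lower reads under starvation. Low counts were mostly even in each library, and this edgeR fit was not run on halved reads. The planned limma fit without the filter also called the difference in WT (limma BH-adjusted p = 0.00211) and in RA (limma BH-adjusted p = 0.0133). No fold is given, since the starved level lies near or under the floor of 3 reads.

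The TSC genes rose under starvation in both genotypes. In WT the rise was larger for Tsc1 than for Tsc2, which is the more abundant of the pair per kilobase. Starved RA stood below starved WT for Tsc1 and above it for Tsc2.

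Tsc1 (chr2:28641228-28691167) stood at 32.9 and 34.1 in the normal and at 76.0 and 70.6 in the starved WT libraries, and at 34.8 and 31.1 in the normal and 61.3 and 61.7 in the starved RA libraries. The normal groups overlapped, and starved RA lay between them and starved WT. The level under starvation was 2.19 times that in normal medium in WT (log2 difference 1.11, SE 0.058, limma BH-adjusted p = 1.15e-11) and 1.87 times in RA (0.88, limma BH-adjusted p = 4.87e-10). Under starvation RA was below WT by a log2 difference of -0.25 (95% interval -0.37 to -0.13, limma BH-adjusted p = 0.00121), and in normal medium the difference was -0.03 (95% interval -0.15 to 0.10, limma BH-adjusted p = 0.826).

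The response of Tsc1 differed between the genotypes by -0.22 (95% interval -0.40 to -0.05, limma BH-adjusted p = 0.0307). This call depended on the setting. It was lost without the filter (adjusted p = 0.0983), with total-read scaling (0.16), quantile normalization (0.0968) and eBayes without the trend (0.0984), all in limma, and with edgeR on recovered reads (adjusted p = 0.0593) or halved reads (0.0609). It was also lost in limma without WT_CTL replicate 1 (-0.199), WT_GS replicate 1 (-0.171), RA_CTL replicate 1 (-0.145), RA_GS replicate 1 (-0.22) or RA_GS replicate 2 (-0.227), where WT_GS and RA_GS label the starved libraries. The direction was the same in each of these.

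Tsc2 (chr17:24595816-24632630) stood at 94.7 and 89.5 in the normal and at 109.2 and 109.4 in the starved WT libraries, and at 88.5 and 89.3 in the normal and 119.8 and 119.6 in the starved RA libraries. Both starved groups lay above both normal groups, with starved RA at the top. The level under starvation was 1.19 times that in normal medium in WT (log2 difference 0.24, SE 0.041, limma BH-adjusted p = 3.31e-05) and 1.35 times in RA (0.43, limma BH-adjusted p = 7.27e-08). The response was larger in RA by 0.18 (95% interval 0.06 to 0.30, limma BH-adjusted p = 0.0152), and starved RA exceeded starved WT by 0.13 (95% interval 0.04 to 0.22, limma BH-adjusted p = 0.0105). The first of these calls was lost without WT_CTL replicate 1 (0.14, limma BH-adjusted p = 0.0924) and with eBayes without the trend (0.18, limma BH-adjusted p = 0.0675). The second was lost without RA_GS replicate 1 (0.129, limma BH-adjusted p = 0.0552), without RA_GS replicate 2 (0.131, limma BH-adjusted p = 0.0517) and with eBayes without the trend (0.13, limma BH-adjusted p = 0.0522).

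Exons of Tsc2 share 693 bases with Pkd1 on the opposite strand in GENCODE M21, and Pkd1 had a mean value of 125.0 over the 8 samples. How strand was handled in counting was not given in the sources used here, so reads over the shared bases cannot be assigned to either gene. Exons of Rptor share 84 bases with Rptoros (mean value 1.81) and exons of Deptor 303 bases with Gm9920 (mean value 0.142), both on the opposite strand. Exons of the other 7 genes overlapped no exon of another gene.

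Of the mTOR complex genes, Mtor rose and Deptor fell in starved WT, and neither passed the test in starved RA. Rptor was called in none of the 5 comparisons.

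Mtor (chr4:148448611-148557683) stood at 48.6 and 52.9 in the normal and at 65.8 and 62.2 in the starved WT libraries, and at 56.4 and 49.5 in the normal and 55.4 and 51.4 in the starved RA libraries. Starved WT stood above the other 3 groups, which overlapped. The level under starvation was 1.26 times that in normal medium in WT (log2 difference 0.33, SE 0.063, 95% interval 0.20 to 0.46, limma BH-adjusted p = 0.000145), against a log2 difference of 0.01 in RA (95% interval -0.12 to 0.15, limma BH-adjusted p = 0.864). Starved RA was below starved WT by a log2 difference of -0.26 (limma BH-adjusted p = 0.002), and in normal medium the difference was 0.06 (95% interval -0.07 to 0.19, limma BH-adjusted p = 0.608). The responses differed by -0.32 (95% interval -0.51 to -0.13, limma BH-adjusted p = 0.00731), a call that was lost without the filter (-0.316, limma BH-adjusted p = 0.0607) and with eBayes without the trend (-0.316, limma BH-adjusted p = 0.0611).

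Rptor (chr11:119602905-119899576) stood at 43.9 and 45.0 in the normal and at 49.95 and 45.2 in the starved WT libraries, and at 46.7 and 44.4 in the normal and 47.5 and 48.5 in the starved RA libraries. All 8 values lay between 43.9 and 49.95. The log2 difference between starved and normal cells was 0.09 in WT (95% interval -0.02 to 0.21, limma BH-adjusted p = 0.126) and 0.07 in RA (95% interval -0.04 to 0.19, limma BH-adjusted p = 0.248). The WT difference was called without WT_GS replicate 2 (0.164, limma BH-adjusted p = 0.0239). The genotypes differed by 0.03 in normal medium (95% interval -0.08 to 0.15) and by 0.01 under starvation (95% interval -0.10 to 0.13), so that a difference between genotypes beyond 0.15 lay outside both intervals.

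Deptor (chr15:55112317-55259271) stood at 8.04 and 7.18 in the normal and at 3.90 and 4.24 in the starved WT libraries, and at 8.78 and 6.78 in the normal and 7.83 and 8.14 in the starved RA libraries. Starved WT was again apart, below the other 3 groups, whose values overlapped. Starvation left 0.535 of the level in WT (log2 difference -0.76, SE 0.12, 95% interval -1.01 to -0.51, limma BH-adjusted p = 1.56e-05). In RA the log2 difference was 0.04 (95% interval -0.21 to 0.29, limma BH-adjusted p = 0.766). The responses differed by 0.81 (SE 0.17, 95% interval 0.45 to 1.16, limma BH-adjusted p = 0.000748), and starved RA was 1.96 times starved WT (log2 difference 0.83, limma BH-adjusted p = 1.22e-05). These 186 to 400 reads per library were the fewest of the 9 genes that were tested.

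**Figure D3:**
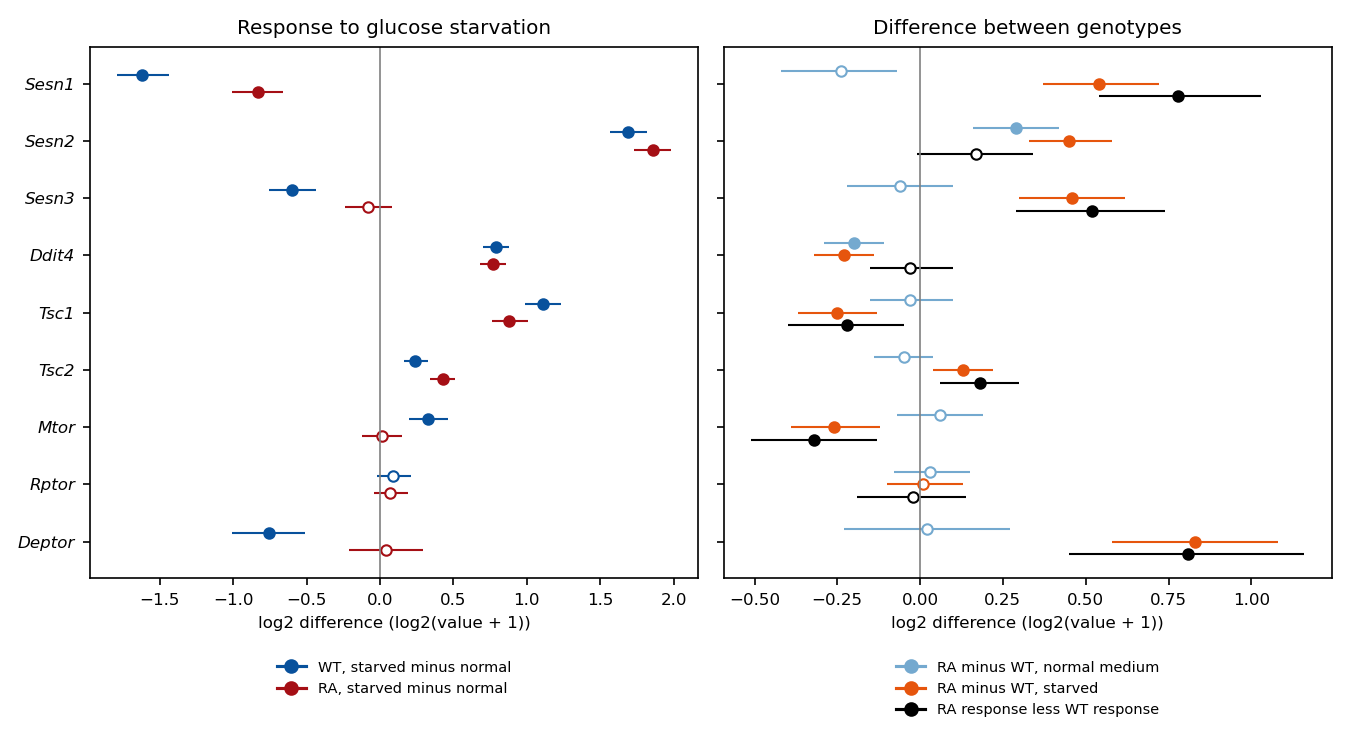
Log2 differences of log2(value + 1) with 95% intervals for the 9 genes tested, between media on the left and between genotypes on the right, from a limma fit over 8 libraries. Filled points passed a BH-adjusted p under 0.05 and open points did not. Sesn1, Sesn3 and Deptor have interactions of 0.78, 0.52 and 0.81, above 0, and Tsc1 and Mtor of -0.22 and -0.32, below 0.

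Per kilobase the levels in normal WT ran from Ddit4 (42.2) through Tsc2 (9.57), Sesn1 (5.06), Mtor (5.02), Sesn2 (4.96), Rptor (3.3), Tsc1 (2.83) and Sesn3 (1.39) to Deptor (0.858) and Ddit4l (0.115). Sesn1, Mtor and Sesn2 differed by less than the spread of Mtor between replicates (SD 0.30). In starved RA the order began with Ddit4 (62.6), Sesn2 (22.9), Tsc2 (12.4), Mtor (5.28) and Tsc1 (5.2), so Sesn2 had passed Tsc2. Mtor and Tsc1 again differed by less than the spread of Mtor (SD 0.28).

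Counted over the 9 genes tested, 8 were called under starvation in WT, where 78.6% of all 16232 genes were called. Of these, 5 were higher (39.3% of all genes) and 3 lower (39.2%). In RA 5 of the 9 were called, against 68.7% of all genes, with 4 higher (35.0%) and 1 lower (33.7%). Between starved RA and starved WT 8 of the 9 were called, against 62.9%, with 5 higher (30.8%) and 3 lower (32.1%) in RA. In the interaction 6 of the 9 were called, against 50.6%, with 4 higher (24.5%) and 2 lower (26.1%). In normal medium 2 of the 9 were called between the genotypes, against 9.63%, with Sesn2 higher (6.68%) and Ddit4 lower (2.95%) in RA. The libraries of the groups compared did not overlap for 9 of the 9 genes in the WT response (88.7% of all genes), 6 in the RA response (83.3%), 4 between genotypes in normal medium (53.2%) and 8 under starvation (81.5%). With so many genes called in all, these counts mark nothing particular about the 9 genes. In normal medium the split of all calls changed with library scaling, with 69.4% of them higher in RA as deposited and 40.4% with total-read scaling. The median log2 difference over the 9 genes was 0.24 in WT and 0.07 in RA, beside 0.005 and 0.013 over all genes tested. The comparisons share samples: starved WT enters its response, the comparison of starved genotypes and the interaction. Low or high values in starved WT therefore appear in all 3 of them.

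The directions in which the brakes and the complex itself moved can be set side by side. Among the brakes that were tested, Sesn2, Ddit4, Tsc1 and Tsc2 rose in both genotypes, whereas Sesn1 fell in both and Sesn3 and Deptor fell in WT. Ddit4l, which did not pass the filter, had fewer reads in every starved library, near the limit of detection. In starved cells, RA was higher than WT for Sesn1, Sesn2, Sesn3, Tsc2 and Deptor and lower for Ddit4, Tsc1 and Mtor.

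Across the 8 samples, Sesn1 and Tsc1 ran in opposite directions (Pearson's r = -0.97 on log2 values), as did Sesn1 and Sesn2 (-0.89). Sesn3 and Deptor ran together (0.96), as did Sesn2 and Tsc2 (0.97). These are descriptions over 8 points that share 4 groups of 2 libraries, and many genes follow the same pattern. For Sesn1, 1289 of 10497 genes with a mean value of at least 10 had a correlation over 0.95, for Sesn2 716, for Ddit4 1160, for Tsc1 1570, for Sesn3 395, for Tsc2 327 and for Deptor 143. For Mtor there were 7 and for Rptor 0. Among the genes most like Sesn1 were Ctdsp2 (r = 0.9981) and RP24-286J21.7 (0.998). Those most like Sesn2 were Garem1 (0.9983), Igfbp4 (0.9982) and Cdsn (0.9978), and those most like Sesn3 were F730043M19Rik (0.9902), Atl3 (0.9867) and Cep89 (0.9866).

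The closest to Ddit4 were Lrrc45 (0.9972), Xbp1 (0.9972) and Micu3 (0.9968), with Xbp1 known as a transcription factor of the unfolded protein response. Eea1 (0.9986) was closest to Tsc1, Wdfy1 (0.9962) to Tsc2, Uhmk1 (0.9783) to Mtor, Cul4a (0.8972) to Rptor and Ccng1 (0.9919), a p53 target, to Deptor.

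The other genes of the mTORC1 network were taken from 5 lists with 46 genes, all of which were tested. Under starvation 45 (97.8%) were called in WT, 30 higher and 15 lower, against 78.6% of all genes, with a median log2 difference of 0.37. In RA 34 (73.9%) were called, 25 higher and 9 lower, against 68.7% of all genes, with a median of 0.20. The interaction was called for 22 (47.8%, against 50.6%), of which 15 were lower in RA and 7 higher. Between the starved genotypes 24 were called (52.2%, against 62.9%), 16 lower and 8 higher in RA. In normal medium 2 were called between the genotypes (4.35%, against 9.63%), 1 in each direction. The shares called for the interaction and between the genotypes thus stood under those of all genes.

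The Rag GTPases, which bring mTORC1 to the lysosome, and the Ragulator complex that anchors them form the list with a common direction. The list also holds Slc38a9, which belongs to neither. In WT 10 of 10 rose (9 with total-read scaling), with a median log2 difference of 0.59, beside 39.3% of all genes called higher. In RA 7 of 10 rose, with a median of 0.32, beside 35.0%. The interaction was called for 6 of the 10, all with the smaller response in RA, beside 26.1% of all genes called in that direction. Rragd went from 0.937 to 14.6 in WT cells and from 0.813 to 3.14 in RA cells, with log2 differences of 3.02 and 1.19 (interaction -1.82, limma BH-adjusted p = 2.54e-07). At such low values the scale of log2(value + 1) understates the change. Rragc went from 94.9 to 244 in WT cells and from 92.1 to 165 in RA cells (1.36 and 0.83, interaction -0.52, limma BH-adjusted p = 4.82e-07). Sestrins act upstream of these GTPases.

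The genes of GATOR1, GATOR2, the KICSTOR complex and the amino acid sensors moved both ways. In WT 8 of 15 rose and 7 fell, beside 39.3% and 39.2% of all genes called higher and lower. RA had 8 higher and 3 lower, beside 35.0% and 33.7% of all genes. Castor2, which encodes a paralog of the arginine sensor CASTOR1, fell from 14.8 to 2.72 in WT cells and from 12.9 to 6.25 in RA cells, log2 differences of -2.09 and -0.94 (interaction 1.15, limma BH-adjusted p = 6.4e-06). Castor1 fell by 0.57 in WT and by 0.46 in RA on the log2 scale. Of the GATOR2 subunits, to which sestrins bind, Wdr24 rose by 0.74 in WT cells and 0.35 in RA cells and Wdr59 by 0.62 and 0.54. Mios rose by 0.55 and 0.41 and Seh1l by 0.24 and 0.12, whereas Sec13 fell, with log2 differences of -0.34 and -0.41.

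Of the other mTOR complex subunits and assembly factors, 4 of 9 rose and 4 fell in WT, beside 39.3% and 39.2% of all genes. RA had 5 higher and 2 lower, beside 35.0% and 33.7% of all genes. Akt1s1, which encodes the inhibitory mTORC1 subunit PRAS40, went from 55.2 to 124 in WT cells and from 56.9 to 87.3 in RA cells, log2 differences of 1.15 and 0.61 (interaction -0.54, limma BH-adjusted p = 1.16e-06). It rose where Deptor, the other inhibitory subunit, fell. Prr5, which encodes a subunit of the second mTOR complex, fell by 0.87 in WT and 0.33 in RA on the log2 scale.

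Beside Tsc1 and Tsc2, Tbc1d7 encodes the third subunit of the TSC complex. Its log2 difference was -0.21 in WT (limma BH-adjusted p = 0.0384) and -0.25 in RA (limma BH-adjusted p = 0.0191). The WT call was lost without the filter (limma BH-adjusted p = 0.0611), with quantile normalization (-0.0659), with DESeq2 (DESeq2 BH-adjusted p = 0.0589) and without WT_CTL replicate 1 (-0.162) or WT_GS replicate 1 (-0.159). The RA call was lost without RA_CTL replicate 2 (-0.217) or RA_GS replicate 1 (-0.174). Rheb, the GTPase that the TSC complex switches off, rose by 0.49 in WT and 0.36 in RA. Its relative Rhebl1 went from 7.86 to 14.4 in WT cells, but from 6.89 to 6.78 in RA (interaction -0.82, limma BH-adjusted p = 0.000201).

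Among 9 substrates and effectors of mTORC1, 6 rose and 3 fell in WT, beside 39.3% and 39.2% of all genes. RA had 4 higher and 3 lower, beside 35.0% and 33.7% of all genes. Pdcd4, an inhibitor of translation that mTORC1 signalling removes, went from 13.2 to 31.5 in WT cells and from 14.8 to 21.6 in RA cells (interaction -0.68, limma BH-adjusted p = 3.97e-05). Eif4ebp3, a repressor of cap-dependent translation, rose by 0.99 and 0.53, whereas its paralog Eif4ebp2 fell by 0.63 and 0.90.

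**Figure D4:**
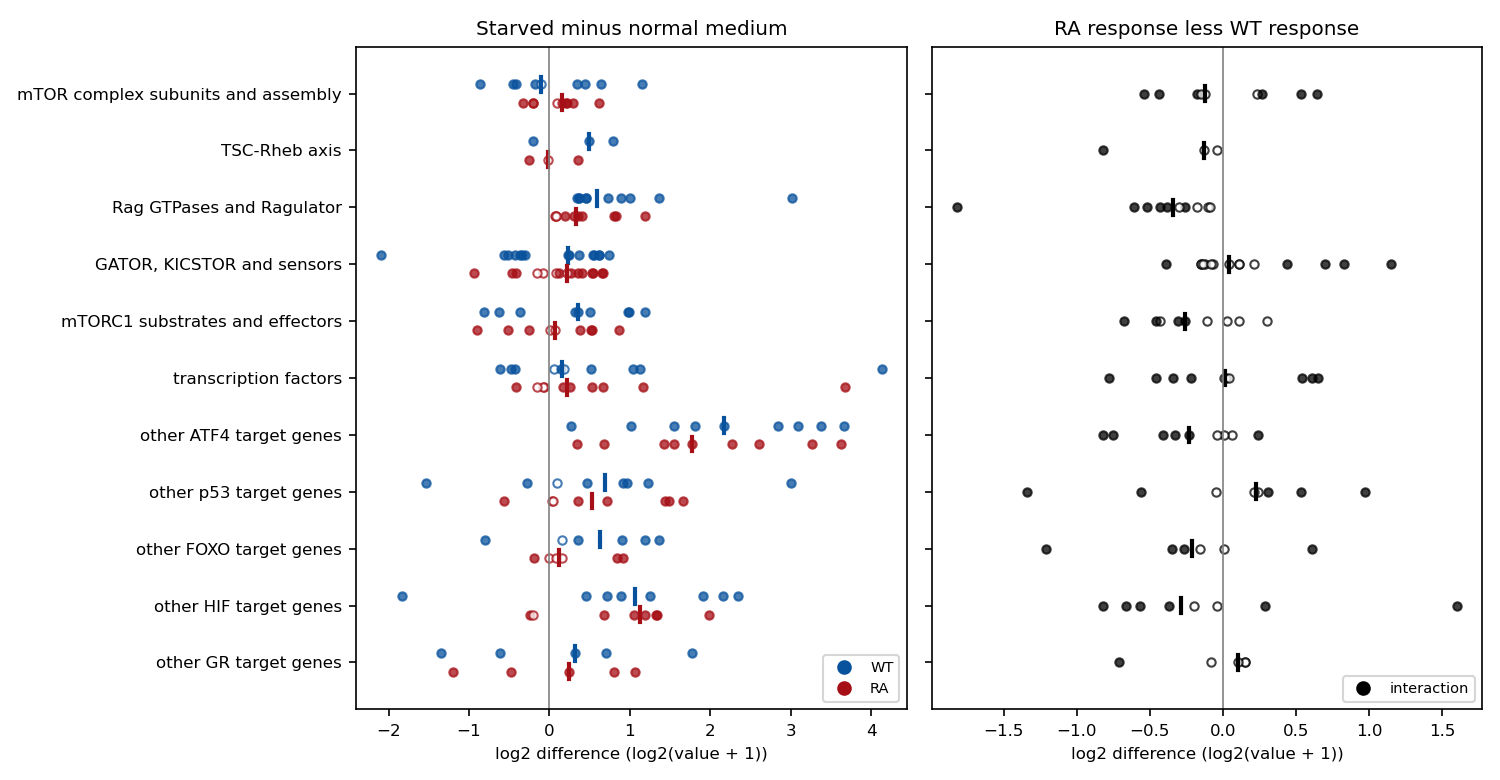
Log2 differences of log2(value + 1) for genes on the lists, by list, for the responses of WT and RA to starvation on the left and for the interaction on the right. Each point is a gene, filled where the BH-adjusted limma p was under 0.05, and bars are list medians. On the left all 9 other ATF4 targets, in both genotypes, and all 10 genes of the Rag and Ragulator list, in WT, lie above 0. On the right the medians of these lists are -0.23 and -0.34.

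The factors known to drive the sestrin and REDD genes were examined with other genes that they are known to control. Atf4 went from 409 to 894 in WT cells and from 449 to 1007 in RA cells, and the responses differed by 0.04 (limma BH-adjusted p = 0.614). Ddit3, which encodes the stress factor CHOP, went from 49.2 to 878 in WT cells and from 51.2 to 661 in RA cells (interaction -0.46, limma BH-adjusted p = 5.37e-06). All 9 of the other ATF4 targets rose in both genotypes, with medians of 2.17 in WT and 1.77 in RA. Of all genes, 39.3% were called higher in WT and 35.0% in RA. In normal medium 7 of these 9 were higher in RA (5 with total-read scaling), as was Sesn2, where 6.68% of all genes were called higher. Between the starved genotypes 4 of the ATF4 targets were higher and 3 lower in RA, beside 30.8% and 32.1% of all genes. Their interaction was called for 6, with 1 above 0 and 5 below, beside 24.5% and 26.1% of all genes, and had a median of -0.23. The 1 above 0 was Trib3, an inhibitory pseudokinase, which went from 20.9 to 227 in WT cells and from 27.1 to 344 in RA cells (interaction 0.24, limma BH-adjusted p = 0.00407). Chac1, which encodes an enzyme that degrades glutathione, went from 17.2 to 230 in WT cells and from 25.0 to 248 in RA cells, with an interaction below 0 (-0.41, limma BH-adjusted p = 5.61e-05).

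Other p53 targets moved both ways: 5 of 8 rose and 2 fell in WT, beside 39.3% and 39.2% of all genes. RA had 5 higher and 1 lower, beside 35.0% and 33.7% of all genes. Their interaction was called above 0 for 3 and below 0 for 2, beside 24.5% and 26.1% of all genes. Trp53inp1, an autophagy-linked stress gene, went from 1.37 to 17.9 in WT cells and from 1.40 to 6.60 in RA cells. Phlda3, which encodes an inhibitor of AKT, fell from 25.7 to 8.27 in WT cells and from 26.1 to 17.3 in RA cells (interaction 0.97, limma BH-adjusted p = 2.04e-05), a pattern in the direction of Sesn1.

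Of 6 other FOXO targets, 4 rose and 1 fell in WT, beside 39.3% and 39.2% of all genes. RA had 2 higher and 1 lower, beside 35.0% and 33.7% of all genes. Their interaction was called above 0 for 1 and below 0 for 3, beside 24.5% and 26.1% of all genes. Ccng2, an unconventional cyclin, went from 9.91 to 26.9 in WT cells, but from 8.96 to 10.1 in RA (interaction -1.21, limma BH-adjusted p = 8.98e-07), while Cdkn1b, a cell cycle inhibitor, fell by 0.80 and 0.19. The RA call of Cdkn1b was lost without RA_GS replicate 1 (-0.126). Foxo1 went from 11.3 to 7.09 in WT cells and from 10.3 to 9.78 in RA cells (interaction 0.54, limma BH-adjusted p = 0.00248). The other FOXO genes, named after their values were seen, did not follow it. Foxo3 rose from 17.2 to 36.4 in WT cells and from 17.4 to 20.9 in RA cells (1.04 and 0.26, interaction -0.78, limma BH-adjusted p = 1.62e-05), and its RA call was lost without RA_CTL replicate 2 (0.164). Foxo4 was not called in either response (0.18 and -0.16), although the first passed with quantile normalization (0.314) and without WT_GS replicate 1 (0.263).

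Of 8 other HIF targets 7 rose and 1 fell in WT, beside 39.3% and 39.2% of all genes, with a median of 1.07. RA had 6 higher and 1 lower, beside 35.0% and 33.7% of all genes, with a median of 1.12. Their interaction was called above 0 for 2 and below 0 for 4, beside 24.5% and 26.1% of all genes. Vegfa, an angiogenic factor, went from 66.4 to 343 in WT cells and from 68.5 to 273 in RA cells, and Bnip3, a mitophagy receptor, from 19.4 to 89.9 and from 18.9 to 49.1. Bnip3 is also treated by the study as a target of FOXO3a (from Foxo3) that depends on methylated Pontin. Adm, which encodes adrenomedullin, fell from 24.3 to 6.07 in WT cells and from 24.4 to 20.5 in RA cells (interaction 1.60, limma BH-adjusted p = 2.71e-09). The RA call of Adm was lost without RA_CTL replicate 2 (-0.203) and without RA_GS replicate 2 (-0.22). Hif1a went from 179 to 128 in WT cells and from 161 to 181 in RA cells, with a called response of opposite direction (-0.48 and 0.17, interaction 0.65, limma BH-adjusted p = 2.19e-08).

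Of 6 other glucocorticoid receptor targets, 5 were tested, and 3 rose and 2 fell in each genotype. The shares of all genes called higher and lower were 39.3% and 39.2% in WT and 35.0% and 33.7% in RA. Their interaction was called for 1, below 0, beside 26.1% of all genes. Klf9, a transcription factor, rose by 1.77 in WT and 1.06 in RA, Tsc22d3, also called GILZ, by 0.70 and 0.80, and Errfi1, an inhibitor of the EGF receptor, fell by 1.35 and 1.20. The lists for these factors thus held genes of both directions, except that of ATF4, in which all 9 genes rose in both genotypes. All lists were chosen with earlier results of these data known, so a shared direction may reflect the choice of genes. Which factors acted on the sestrin and REDD genes was not tested.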

How the data were processed

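RNA-seq was performed on 8 libraries of Pontin WT and Pontin RA MEFs in 2 media, grouped per the labels. Libraries were made with the TruSeq RNA v2 kit and sequenced as paired ends, and the submitters' processing notes name TopHat2 (version 2.0.9), bedtools, edgeR and the mm9 build. The counter, the annotation and the use of strand are not given in the sources used here. Columns named minus were taken as normal medium and those named plus as starvation, as the study marks them. The authors deposited 1 table in which each value is a signal, the CPM of a library size that they scaled. Columns summed to between 965845 and 1029723. CPM had been planned for, and the same test was used. Values above 0 came out as whole reads in 100% of cases in each sample, within a tolerance of 0.01, and between 78.2% and 80.5% of recovered counts from 1 to 9 were even, so edgeR was also run on halved reads. Totals cover counting error only.

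Genes that reached a value of 1 in 2 or more samples were fitted with limma (version 3.58.1, R version 4.3.3) on log2(value + 1), with a mean per group over 8 samples and eBayes with a mean-variance trend. Changes of weakly expressed genes are understated on this scale. P-values were 2-sided, adjusted by Benjamini-Hochberg (BH) over 16232 genes within each contrast, and called under 0.05. The 5 contrasts were starved against normal WT, starved against normal RA, RA against WT in each medium, and the interaction (the RA response less the WT response). Alternatives were a pseudocount of 0.1, no filter, 3 scalings, the replicate block, eBayes without the trend, a fit on only 2 groups, DESeq2 (version 1.42.0), edgeR (version 4.0.16) on the recovered reads, and leaving out each sample. EdgeR without the filter was added after the data had been seen. The test was run on simulated data in which 200 of 16232 genes were changed 2-fold in starved RA. It recovered 99.5% of them between the starved genotypes and 85% in the interaction, and 2.93% and 3.95% of the calls were false. Smaller changes, and data in which most genes change, were not simulated.

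All 10 genes, Ruvbl1 and genes with overlapping exons were named. Other genes were named from the 2 highest and 2 lowest of each list by the difference between starved and normal WT, or from the 3 most correlated with a member, not all of which are reported here. Foxo3, Foxo4, Mios, Seh1l and Sec13 were added after their values were seen. The members and lists were chosen with earlier results of these data known. Exon lengths, positions and overlaps came from GENCODE M21 (GRCm38) and promoters from RefSeq (GRCm38.p6), which are not the build of the values, and no value was placed by coordinates.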

Additional observations from a re-analysis of the deposited data

Results flagged for a closer look

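The response to starvation differed between Pontin WT and Pontin RA for 6 of the 9 genes tested, by a called interaction in limma, where 50.6% of all genes were called. The response in RA less that in WT was 0.78 for Sesn1, 0.52 for Sesn3 and 0.81 for Deptor on the log2 scale, genes that fell in WT. It was 0.18 for Tsc2, -0.22 for Tsc1 and -0.32 for Mtor, genes that rose in WT. The interactions of Sesn1, Sesn3 and Deptor were called under every alternative run, and those of Tsc1, Tsc2 and Mtor were not.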

How the results depend on the processing

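Over the alternatives, 834 values of the 9 genes kept their direction and their side of the threshold, 23 lost a call, 6 gained one and 28 changed sign, and the cause was not tested. In normal medium the count of genes called between RA and WT was 2. It was 0 with eBayes without the trend in limma (3 at an unadjusted p under 0.05, and 3 called by edgeR and 2 by DESeq2), and 0 to 2 when 1 sample was left out, with 0 without WT_CTL replicate 2 (2 at an unadjusted p under 0.05) and 1 without RA_CTL replicate 2. For the interaction the count was 6, and 3 with eBayes without the trend. Of the 46 network genes 2 were called in normal medium. The count was 0 without the filter and 0 with eBayes without the trend (9 at an unadjusted p under 0.05 in both, and 2 called by edgeR and 2 by DESeq2), 1 with quantile normalization, and 0 to 4 when 1 sample was left out: 1 without WT_CTL replicate 1 or 2, 4 without RA_CTL replicate 1 and 0 without RA_CTL replicate 2 (8 at an unadjusted p under 0.05). With the replicate block 4 network genes were called there, and the members called in the 5 contrasts numbered 8, 5, 2, 8 and 6 as in the fit without it. Same-numbered samples deviated together with correlations of -0.00764 to 0.157, so the numbers were not taken to pair the samples.

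No value that changed sign had passed the test. With total-read scaling the interaction became 0.0454 for Ddit4, 0.0491 for Rptor and 0.0277 for Tbc1d7, and the difference in normal medium became -0.0135 for Rptor and -0.0215 for Deptor. With quantile normalization the interaction became 0.00462 for Ddit4, 0.00965 for Rptor and -0.0526 for Castor1. With edgeR it became 0.00554 for Ddit4 and 0.00776 for Rptor, and on halved reads 0.00647 and 0.0112. The difference between the starved genotypes for Rptor became -0.00251 with median-ratio scaling and -0.00335 with DESeq2. Leaving out 1 sample gave ranges that cross 0. In normal medium these were -0.137 to 0.0179 for Sesn3, -0.104 to 0.0523 for Tsc1, -0.0328 to 0.152 for Mtor, -0.00317 to 0.0701 for Rptor and -0.144 to 0.186 for Deptor. Between the starved genotypes the range was -0.0577 to 0.0825 for Rptor. In the RA response they were -0.079 to 0.105 for Mtor, -0.123 to 0.207 for Deptor, -0.125 to 0.0775 for Rhebl1, -0.0341 to 0.0962 for Ccng1 and -0.0973 to 0.0769 for Bcl2l11. In the interaction they were -0.0543 to 0.00331 for Ddit4, -0.0912 to 0.0491 for Rptor, -0.112 to 0.0345 for Tbc1d7, -0.0113 to 0.0909 for Atf4 and -0.0437 to 0.239 for Tsc22d3. Where a sample left out leaves 1 in its group, that sample is assumed to vary like the other groups. Depth limits Ddit4l, with 0 to 6 reads in starved libraries.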
